A study of Mus musculus with 3 samples.

Results

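The cells described here carried at least 1 UMI (unique molecular identifier, a counted transcript) of Pthlh and little Sfrp2 or Col9a1 in the E16.5 library of mouse mandibular condylar cartilage, the cartilage of the jaw side of the temporomandibular joint. They numbered 84 of 4562 kept E16.5 cells, or 1.84% (95% exact binomial interval 1.47 to 2.27). The series has 3 libraries of wild-type C57BL6 mice, from E16.5 (embryonic day 16.5), P0 (the day of birth) and 13w (13 weeks), which kept 4562, 3999 and 8028 cells. Each came from the condyles of 7 to 20 mice of an age, pooled, digested with collagenase and dispase and sorted as live cells by Calcein AM and DAPI. A kept cell had 500 genes or more and no more than 10% of UMIs from mitochondrial genes. The 84 cells then had fewer than 3 UMIs of the cartilage collagen gene Col9a1 and fewer than 5 of the Wnt-binding Sfrp2 per 10000 UMIs, and no UMI of Mki67, Top2a, Ptprc or Pecam1, which mark dividing, blood and endothelial cells. They are called the member cells below, and the 932 cells that met every limit but had no Pthlh UMI are called the Pthlh-negative cells within the same limits. The member cells were chosen by their measured counts of these 7 genes, so levels below are descriptions of 1 library, with no test. Intervals are 95%, exact, and cover counting error only.

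Pthlh encodes parathyroid hormone-related protein, a secreted signal that keeps growth plate chondrocytes proliferating and delays hypertrophy through its receptor Pth1r. In long bones it forms a loop with Indian hedgehog (Ihh), which prehypertrophic chondrocytes secrete and which acts on cells nearer the surface. Hedgehog signalling acts through the receptor Ptch1 and raises transcription of Gli1, Ptch1 and Hhip, the last of which encodes a membrane protein that binds hedgehog ligand. Condylar cartilage is covered by a fibrous layer and a layer of progenitor cells, and Pthlh is known from these layers.

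The 84 cells were a small share of the Pthlh-positive cells, and most held a single Pthlh UMI. There were 638 kept E16.5 cells with a Pthlh UMI, and the 84 made up 13.2% of them. Another 248 failed only at the Sfrp2 limit, 11 at the Col9a1 limit, 265 carried Mki67 or Top2a and 30 carried Ptprc or Pecam1, with each cell counted once. Among the 84, 51 had exactly 1 Pthlh UMI, 13 had 2 and 20 had at least 3, with 7 as the highest. Summed Pthlh was 174 CPM (UMIs of a gene scaled to a fixed group total; interval 147 to 203), against 209 CPM (192 to 227) in the 248 Sfrp2-high Pthlh-positive cells. Within the limits 8.27% of 1016 cells had a Pthlh UMI, against 2.08% of the 144 Ptprc-positive cells, which should lack it. Median depth was 13934.5 UMIs in the Pthlh-negative cells within the limits and 10766.5 UMIs in the Ptprc-positive cells. How many of the cells with a single Pthlh UMI owe it to free RNA was not tested.

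The member cells spanned 1593 to 31055 UMIs with a median of 10424, and held 893056 UMIs in all. The Pthlh-negative cells within the same limits had a median of 13934.5 and all other kept cells of 17616.5. At the Sfrp2 limit the values ran on without a gap: the highest member cell had 4.88 UMIs per 10000 and the lowest Pthlh-positive cell outside had 5.03. On each side 10 cells lay within 1 UMI per 10000 of that limit. Sfrp2 was detected in 50 of the 84 cells and Col9a1 in 7. Cell barcodes shared between libraries numbered 15 for E16.5 and P0 and 13 for E16.5 and 13w, and 1 of them was a member cell.

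A working name for these cells held that they are not fibroblasts, and the data went against it. All 84 carried UMIs of at least 1 of 6 fibroblast markers other than Sfrp2, namely Dcn, Lum, Col14a1, Fbln2, Mfap4 and Postn. Summed over the 6, member cells reached 4394 CPM, against 4660 CPM in Sfrp2-high Pthlh-positive cells and 1577 CPM in Pthlh-negative cells within the same limits. Per cell, the median was 43.6 UMIs per 10000 in member cells, 43.0 in Sfrp2-high Pthlh-positive cells and 14.0 in the Pthlh-negative cells. Postn, which encodes the matricellular periostin, was detected in all 84 cells, and Mfap4, a microfibril-associated protein, in 96.4%. The collagen-binding proteoglycan Dcn stood at 747 CPM (interval 691 to 806) in member cells, 592 CPM in Sfrp2-high Pthlh-positive cells and 173 CPM in Pthlh-negative cells. Col14a1, a fibril-associated collagen, separated the Pthlh-positive groups, at 367 CPM in member cells and 699 CPM in Sfrp2-high cells, with 22.3 CPM in Pthlh-negative cells. The rule therefore selected cells low in Sfrp2 itself, not cells low in the other fibroblast markers, and no cell type name is given to them.

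**Figure D1:**
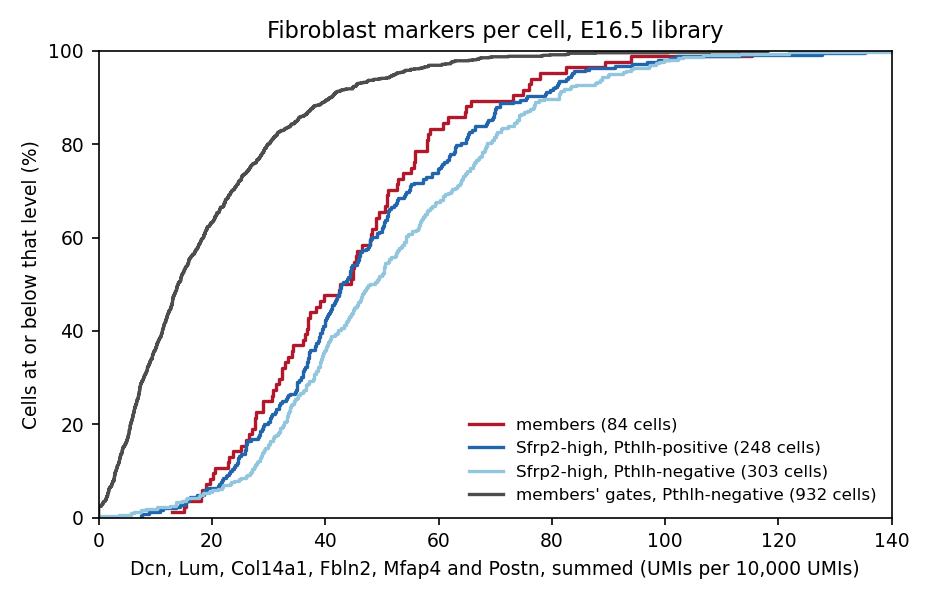
Share of cells (%, vertical) at or below each summed level of 6 fibroblast markers (UMIs per 10000 UMIs, horizontal) in the E16.5 library, for 84 member cells, Sfrp2-high Pthlh-positive and Pthlh-negative cells, and 932 Pthlh-negative cells within the members' limits. The member curve runs beside the Sfrp2-high curves, with medians of 43.6 and 43.0 in the Pthlh-positive groups, and right of the Pthlh-negative curve with its median of 14.0.

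Among other marker lists, immature mesenchyme was the most abundant in the 84 cells and blood, vascular and muscle lists were scarce. The 6 immature mesenchyme markers summed to 1383 CPM in member cells, found in 83 of the 84, against 1042 CPM in Pthlh-negative cells within the same limits and 791 CPM in all other kept cells. In Sfrp2-high cells this sum was higher still, at 1510 CPM in Pthlh-positive and 1795 CPM in Pthlh-negative cells. The markers also differed in direction against the Pthlh-negative cells within the same limits. Past 1.5-fold Prrx1, Osr1 and Meox1 were higher in member cells, Crabp1 was lower, and Twist1 and Twist2 were neither. None of 4 endothelial markers (Cdh5, Kdr, Emcn, Tie1) was detected. Skeletal muscle markers summed to 7.84 CPM, erythroid markers to 16.8 CPM and leukocyte markers to 7.84 CPM. Summed levels were higher in the Pthlh-negative cells within the same limits, at 107, 663 and 48.8 CPM. By share of cells with any such marker the groups lay close. Muscle markers were found in 4.76% of member cells and 3.86% of Pthlh-negative cells. Erythroid markers were found in 16.7% and 18.99%, and leukocyte markers in 8.33% and 7.30%, in the same order. The highest Pthlh-negative cell held 3183 erythroid UMIs per 10000, where the median was 0. Chondrocyte markers other than Col9a1 summed to 325 CPM in member cells, against 593 CPM in those Pthlh-negative cells and 7783 CPM in all other kept cells. Osteoblast markers reached 38.1 CPM in member cells, 1093 CPM in the Pthlh-negative cells and 1232 CPM in all other cells. Hypertrophic chondrocyte markers summed to 114 CPM in member cells and 409.6 CPM in the Pthlh-negative cells, superficial joint cell markers to 94.1 and 31.8 CPM, and mural cell markers to 60.5 and 140.2 CPM. In Sfrp2-high cells the superficial joint cell markers were higher than in member cells, at 227 CPM in Pthlh-positive and 196 CPM in Pthlh-negative cells. They were found in 46.4% of member cells and in 78.2% and 71.3% of those 2 groups. Tendon cell markers summed to 377 CPM in member cells, 77.2 CPM in Pthlh-negative cells and 70.5 CPM in all others. In Sfrp2-high cells they reached a like level, 334 CPM in Pthlh-positive and 339 CPM in Pthlh-negative cells. The member sum was uneven: 52 of the 84 cells carried a tendon marker, and the median was 0.98 UMIs per 10000 with 54.2 in the highest cell.

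Of the hedgehog genes that came with the rule as markers, Hhip had the highest ratio of member cells over the Pthlh-negative cells within the same limits, Ptch1 a lower one, and for Gli1 no difference was detectable. Against all other kept cells the Gli1 ratio lay above that of Ptch1, with an interval that covered the Ptch1 ratio. With every cell thinned to 5000 UMIs the order turned, at log2 ratios of 0.20 for Gli1 and 0.71 for Ptch1. Hhip stood at 98.5 CPM (interval 79.0 to 121) in member cells and at 7.98 CPM in Pthlh-negative cells within the same limits, a log2 ratio of 3.63 (3.21 to 4.04). It was counted in 35 of the 84 cells, with 13 UMIs in the highest. Ptch1 stood at 205 CPM in member cells and 138 CPM in Pthlh-negative cells, a log2 ratio of 0.57 (0.35 to 0.79) that falls short of 1.5-fold. It was counted in 58 member cells. Gli1, the transcription factor most used as a readout of the pathway, stood at 45.9 CPM in member cells and 36.8 CPM in Pthlh-negative cells. Its log2 ratio of 0.32 had an interval from -0.18 to 0.78, so a difference was not detectable at this depth. Gli1 was counted in 28 member cells, all 3 genes in 14, and none of the 3 in 15. Against all other kept cells the log2 ratios were 2.78 for Hhip, 1.05 for Gli1 (interval 0.57 to 1.49) and 0.73 for Ptch1, and all 3 passed 1.5-fold.

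With every cell thinned to 5000 UMIs, which left out 14 member cells and 104 Pthlh-negative cells, Hhip remained the gene with the widest gap. It was then found in 27.1% of 70 member cells (interval 17.2 to 39.1) and 3.62% of 828 Pthlh-negative cells, against 41.7% and 7.73% before thinning. Ptch1 was found in 54.3% of member cells (41.9 to 66.3) and 41.7% of Pthlh-negative cells, against 69.0% and 65.2% before thinning. Gli1 was found in 15.7% of member cells and 18.6% of Pthlh-negative cells after thinning, and in 33.3% and 39.2% before it. In Ptprc-positive cells, thinned alike, the shares were 0.84% for Gli1, 5.88% for Ptch1 and 0 of 119 cells for Hhip, which allows a share of cells with a UMI of up to 2.52% by the floor of 3 counts and 3.05% by the exact interval. Before thinning 1.39% of the Ptprc-positive cells had an Hhip UMI. The Gli1 log2 ratio over summed thinned counts was -0.37, so no direction is given for Gli1 against the Pthlh-negative cells.

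Summed Hhip was higher in Pthlh-positive than in Pthlh-negative cells within the members' limits and among Sfrp2-high, Col9a1-high, cycling and Ptprc- or Pecam1-positive cells. This did not hold in every cluster (described with the clusters). Hhip was 109 CPM in Sfrp2-high Pthlh-positive cells and 47.8 CPM in Sfrp2-high Pthlh-negative cells, a 2.28-fold ratio. In Col9a1-high cells it was 35.9 CPM in the 11 Pthlh-positive and 0.634 CPM in the 576 Pthlh-negative cells, on 13 counts each. In cycling cells it was 112 CPM in Pthlh-positive and 5.88 CPM in Pthlh-negative cells, a 19.1-fold ratio. Among Ptprc- or Pecam1-positive cells it was 49.6 CPM in 30 Pthlh-positive and 5.46 CPM in 340 Pthlh-negative cells, a 9.08-fold ratio. By Pthlh count, Hhip was 63.2 CPM in member cells with 1 UMI, 53.4 CPM in the 13 with 2 and 200 CPM in the 20 with at least 3, at median depths of 9886, 10447 and 12106 UMIs. The cells with 2 UMIs, on 7 Hhip counts, thus lay no higher than those with 1. The ratio within the members' limits was thus 12.4-fold, above that among Sfrp2-high cells, where the Pthlh-negative cells themselves had more Hhip. The difference between these ratios was not tested.

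**Figure D2:**
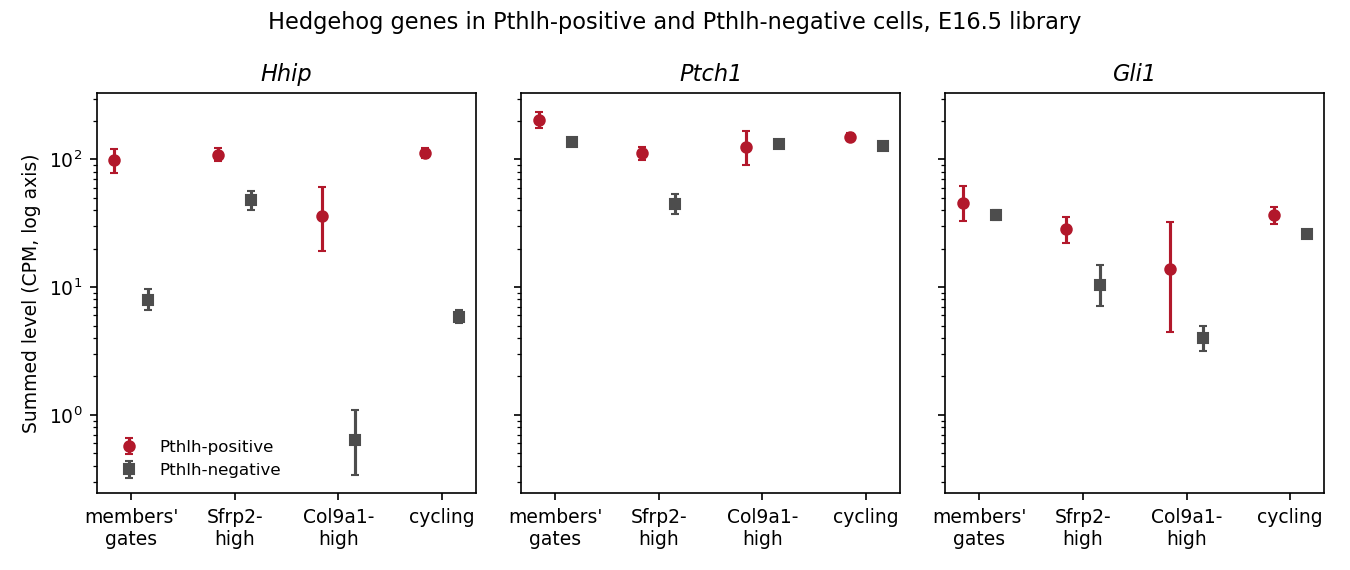
Summed levels (CPM, log axis) of Hhip, Ptch1 and Gli1 in Pthlh-positive (red circles) and Pthlh-negative (grey squares) cells of 4 kinds in the E16.5 library, with 95% exact Poisson intervals of the counts. Member cells are the red circles over the members' gates, where Hhip is 98.5 CPM against 7.98 CPM; Ptch1 and Gli1 lie closer together.

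The receptors and co-receptors of the pathway were mostly higher in member cells than in the Pthlh-negative cells within the same limits. With a gene counted as measured at 10 CPM or more in the higher group and as higher or lower past 1.5-fold, 22.5% of all 8630 measured genes were higher and 10.3% lower in that comparison. Of 6 receptors and co-receptors 5 were higher and 0 lower, with a median log2 ratio of 1.77, where all measured genes had a median of 0.13. The exception was Ptch1. Gas1, a membrane co-receptor for hedgehog ligand, was 235 CPM in member cells and 46.8 CPM in Pthlh-negative cells (log2 2.33), and was higher still in Sfrp2-high Pthlh-positive cells at 565 CPM. Within the largest cluster of member cells Gas1 was instead lower than in Pthlh-negative cells (described with the clusters). The co-receptor Cdon was 57.1 CPM in member cells and 12.7 CPM in Pthlh-negative cells, and its relative Boc 40.3 and 14.96 CPM in the same order. Smo, which transmits the signal, passed narrowly at 85.1 CPM in member cells and 56.7 CPM in Pthlh-negative cells (log2 0.59), and fell under 1.5-fold with other scaling factors, which lower all log2 ratios of this comparison by 0.22 to 0.23.

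Of the effectors and regulators 5 were measured, with 2 higher, Hhip and Gli2, and 1 lower, the inhibitor Sufu, on 7 counts in member cells and with an interval that included no difference. Gli2 was 22.4 CPM in member cells and 11.9 CPM in Pthlh-negative cells, and Gli3 40.3 and 29.1 CPM. Among mesenchymal hedgehog targets only Bcl2, which blocks cell death, was measured, at 73.9 CPM in member cells and 34.3 CPM in Pthlh-negative cells. No ligand was measured within the limits: Shh had no count in member cells, Dhh 1 and Ihh 1. Ihh was 1.12 CPM in member cells and 63.6 CPM in all other kept cells.

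Summed Pth1r, the receptor gene for the Pthlh product, was lower in member cells, though not within their largest cluster (described with the clusters). Pth1r was 57.1 CPM in member cells, on 51 counts in 32 cells, against 180 CPM in Pthlh-negative cells within the same limits (log2 -1.65, interval -2.08 to -1.25) and 510 CPM in all other kept cells. In Sfrp2-high Pthlh-positive cells it was 38.9 CPM. Of 12 measured genes of the parathyroid hormone-related axis 1 was higher and 2 lower, with a median log2 ratio of 0.24, which the other scaling factors bring to near 0. The second lower gene was Mef2c, a transcription factor of chondrocyte hypertrophy, at 45.9 CPM in member cells and 168 CPM in Pthlh-negative cells. The higher one was Crem, a cyclic AMP-responsive factor, whose interval included no difference. Gnas, which encodes the stimulatory G protein coupled to Pth1r, was found in all 84 cells, at 2486 CPM in member cells and 1756 CPM in Pthlh-negative cells, under 1.5-fold.

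Promoter sequence is shown for Pthlh and Hhip because their transcripts were found together. The windows run from 250 bases before to 50 after the start of the gene, are read on the gene's strand and come from RefSeq on build GRCm38.p6, not the GRCm39 build of the deposited counts. Pthlh is at chr6:147263964-147264263 and Hhip at chr8:80057959-80058258, both on the minus strand. Capitals mark matches, on either strand, to CCACCC, the core of the motif bound by Gli factors.
Pthlh: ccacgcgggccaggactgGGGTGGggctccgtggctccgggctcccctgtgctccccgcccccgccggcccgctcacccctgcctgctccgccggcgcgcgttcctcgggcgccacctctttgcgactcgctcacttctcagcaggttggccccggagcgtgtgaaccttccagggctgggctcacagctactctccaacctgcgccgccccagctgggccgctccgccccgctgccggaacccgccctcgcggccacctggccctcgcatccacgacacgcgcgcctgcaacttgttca
Hhip: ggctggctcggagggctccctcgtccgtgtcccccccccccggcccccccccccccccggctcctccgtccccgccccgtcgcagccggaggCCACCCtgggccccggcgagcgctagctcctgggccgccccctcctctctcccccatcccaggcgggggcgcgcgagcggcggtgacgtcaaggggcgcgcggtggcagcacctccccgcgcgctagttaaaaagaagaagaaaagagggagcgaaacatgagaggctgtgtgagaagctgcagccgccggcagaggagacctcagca
Each window holds 1 core match, and that of Ptch1 holds 0. The core is found in 31.5% of all 32851 promoter windows of this length, and in 10 of the 25 windows that matched 24 of 31 genes looked up, which were Pthlh, the hedgehog receptors, effectors and regulators and the 15 highest genes named below. The longer motif GACCACCCA, searched on both strands and containing the core, is in 0.253% of all windows and in 0 of the 25. These are matches of letters only.

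Among genes at 50 CPM or more, the 15 highest ratios of member cells over Pthlh-negative cells within the same limits belonged to Otor, Npy, Abi3bp, Col14a1, Cxcl14, Lgr5, Fst, Igf1, Nbl1, Cxcl12, Tcea3, Col8a1, Ebf3, Hhip and Ntng1. Igf1, insulin-like growth factor 1, was the most abundant, at 1072 CPM in 69 member cells against 81.6 CPM in Pthlh-negative cells (log2 3.71, interval 3.59 to 3.84). Abi3bp, an extracellular matrix protein, was 493 CPM in 65 member cells against 28.6 CPM. Fst, which binds activins and bone morphogenetic proteins (BMPs), was 284 CPM in member cells and 20.0 CPM in Pthlh-negative cells. Nbl1, a secreted BMP antagonist, was 104 CPM in member cells and 8.05 CPM in Pthlh-negative cells. The chemokine Cxcl12 was 268 CPM in 49 member cells and 20.8 CPM in Pthlh-negative cells. Lgr5, a receptor for R-spondins in Wnt signalling, was 67.2 CPM in member cells and 4.63 CPM in Pthlh-negative cells.

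Several of these rested on few cells. Otor, a secreted relative of the cartilage protein Mia, had the highest ratio (184 CPM against 6.27 CPM, log2 4.87), yet was counted in 24 member cells and 27.4% of its counts lay in 1 of them. The neuropeptide gene Npy was counted in 10. All 15 were at 34.7 CPM or more in Sfrp2-high Pthlh-positive cells, Lgr5 there at 151 CPM and Fst at 394 CPM.

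The lowest ratio was that of Ibsp, bone sialoprotein, which was 22.4 CPM in member cells against 926 CPM in Pthlh-negative cells (log2 -5.37, interval -6.08 to -4.74). Ifitm5, a membrane protein of mineralising osteoblasts, was 4.48 CPM against 121 CPM, Smpd3, an enzyme needed for mineralisation, 4.48 CPM against 70.7 CPM, and Panx3, a channel protein of hypertrophic chondrocytes and osteoblasts, 10.1 CPM against 121 CPM. Pdzrn4, Actc1, Col15a1, Foxd2os, Lgals3 and Prelp completed the 10 lowest, all at 20.2 CPM or less in member cells; overlap of the noncoding Foxd2os with its neighbour Foxd2 was not resolved. The cardiac muscle actin gene Actc1 had 3 counts in member cells, and 25 of the 932 Pthlh-negative cells lay in a cluster led by Actc1 and Myog. With 6 blood, vascular and muscle clusters left out, an alternative added after the data had been seen, the Actc1 log2 ratio was 3.19.

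**Figure D3:**
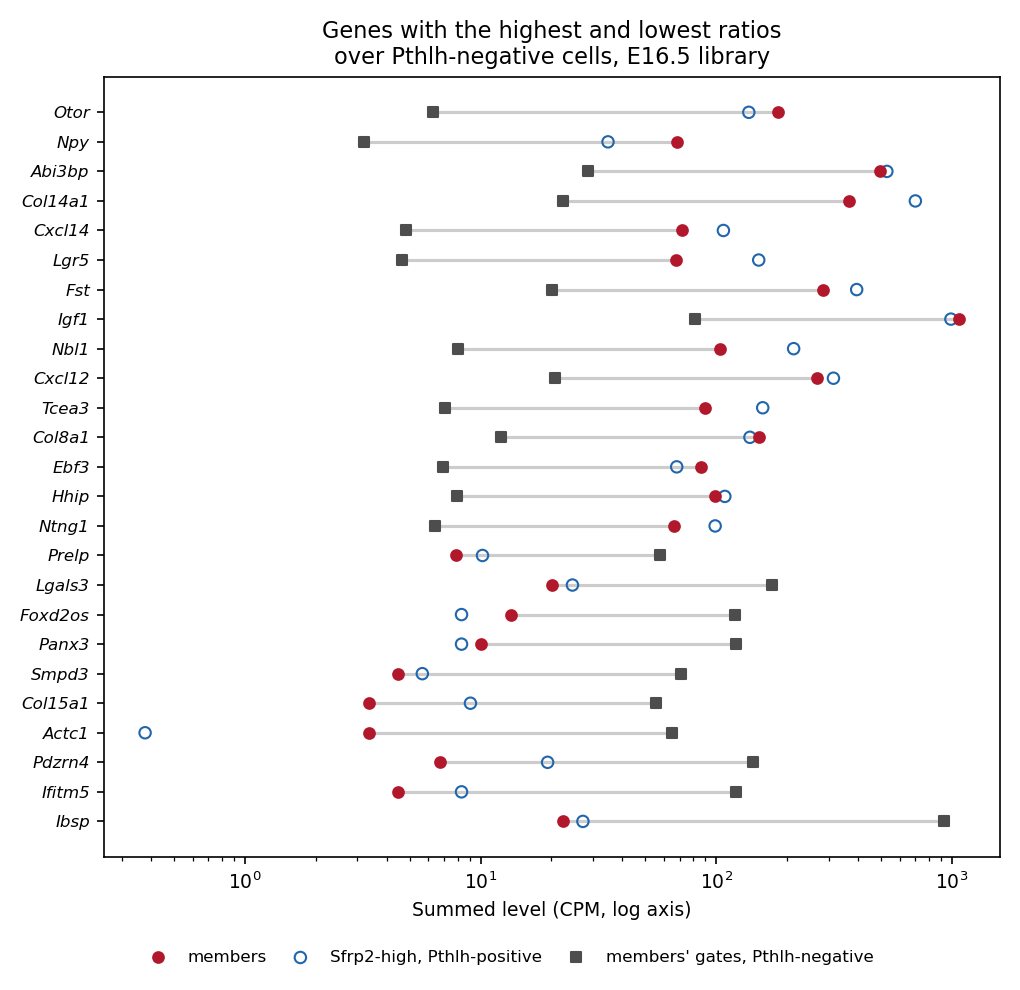
Summed levels (CPM, log axis) of the 15 genes with the highest and the 10 with the lowest ratio of member cells (red) over Pthlh-negative cells within the same limits (grey squares), E16.5 library; open blue circles are Sfrp2-high Pthlh-positive cells. For most of the 25 genes the blue circle lies nearer the red than the grey; Igf1 is 1072 CPM in red and 81.6 CPM in grey, Ibsp 22.4 CPM and 926 CPM.

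By list, matrix genes of fibrous tissue were mostly higher. Of 27 fibrous matrix genes 23 were higher and 2 lower (median log2 1.24), the lower ones being Col12a1 and Tnc. Col1a1, the main collagen of bone and fibrous tissue, was 2781 CPM in member cells and 1815 CPM in Pthlh-negative cells, and Ogn, a small leucine-rich proteoglycan, 923 and 102 CPM. Of 8 joint and surface genes 6 were higher and 0 lower (1.82), among the higher Thbs4 at 191 CPM in 24 member cells against 25.2 CPM and Vcam1 at 68.3 CPM against 8.19 CPM. Against Sfrp2-high Pthlh-positive cells 0 of 10 measured joint and surface genes were higher and 5 lower (-0.67), where 8.86% of all genes were higher and 12.4% lower. Of 12 tendon and ligament genes 6 were higher and 2 lower (0.63). Scx, the tendon transcription factor, was 95.2 CPM in 38 member cells and 20.2 CPM in Pthlh-negative cells. Tnmd, a late tendon gene, was 61.6 CPM in member cells and 22.3 CPM in Pthlh-negative cells, but came from 4 member cells, 1 of which held 40% of the counts. Within the largest cluster of member cells Scx, Tnmd and Col1a1 ran the other way (described with the clusters).

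Of 14 measured cartilage matrix genes 11 were lower and 1 higher (median log2 -0.97), of 12 hypertrophy genes 8 and 1 (-1.43), and of 11 osteoblast genes 7 and 4 (-1.20). The single higher cartilage gene was Comp, on 10 counts. Acan, the main cartilage proteoglycan, was 80.6 CPM in member cells and 161.5 CPM in Pthlh-negative cells within the same limits, with 807 CPM in all other kept cells. The higher osteoblast genes were Sparc, Col1a1, Bmp3 and Mmp16. Among 15 glycolysis and hypoxia genes 14 were lower and 0 higher (-1.25). Against Sfrp2-high Pthlh-positive cells the gap was smaller: of 14 measured 3 were lower and 0 higher (-0.24), and 1 of the 3 had an interval excluding no difference. Ldha, lactate dehydrogenase A, was 479.3 CPM in member cells and 1111 CPM in Pthlh-negative cells, and Hk2, hexokinase 2, 11.2 and 49.6 CPM. The median mitochondrial share of UMIs was 2.34% in member cells and 2.18% in Pthlh-negative cells.

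Of 25 skeletal transcription factors 14 were higher and 6 lower (median 0.87). Sox9, the master regulator of chondrocytes, was 206 CPM in member cells and 373 CPM in Pthlh-negative cells, and the osteoblast factors Sp7 and Runx2 were lower too, Runx2 at 68.3 CPM against 151.8 CPM. This did not hold in every cluster, as Sox9 was higher and Runx2 close in the Ostn and Omd cluster (described with the clusters). Higher were Dlx6 (158 CPM in member cells, 21.0 CPM in Pthlh-negative cells), a homeobox factor of jaw patterning, and Osr1 (52.6 and 5.41 CPM). Osr1 was higher still in Sfrp2-high Pthlh-positive cells, at 181 CPM. The Wnt list had 14 higher and 6 lower of 23 (1.14), with Wnt16 at 25.8 CPM in 13 member cells against 1.21 CPM and the R-spondin Rspo3 at 66.1 CPM against 7.12 CPM. The TGF-beta list had 12 higher and 3 lower of 19 (1.35), with the latent TGF-beta binding protein gene Ltbp1 at 133 CPM in member cells and 28.2 CPM in Pthlh-negative cells. The BMP and GDF list had 9 higher and 2 lower of 18 (0.59). The lower ones were Bmp7, at 5.60 CPM against 32.4 CPM, and Bambi.

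The FGF list had 7 higher and 2 lower of 14 (median 0.55). Fgf18, a ligand that limits chondrocyte proliferation through Fgfr3, was 45.9 CPM in member cells and 5.98 CPM in Pthlh-negative cells, while Fgfr3 was 5.60 CPM in member cells and 29.1 CPM in Pthlh-negative cells. The Notch list had 4 higher and 0 lower of 6 (0.99), with the ligand Jag1 at 50.4 CPM in member cells and 8.19 CPM in Pthlh-negative cells and the target Hes1 at 200.4 and 63.7 CPM. The IGF list had 8 higher and 1 lower of 12 (1.79). Besides Igf1, the binding protein genes Igfbp2 and Igfbp6 were at 129 and 39.2 CPM in member cells, against 14.96 and 5.20 CPM in Pthlh-negative cells. Igfbp2 was higher still in Sfrp2-high Pthlh-positive cells, at 478 CPM. Of 14 imprinted growth genes 5 were higher and 0 lower (0.30), with Dlk1 at 623 CPM against 175 CPM. Of 23 progenitor candidate genes 12 were higher and 7 lower (0.64). Pdgfra, a receptor found on many mesenchymal cells, was 187.0 CPM in member cells and 75.9 CPM in Pthlh-negative cells, and Cd34 85.1 and 54.7 CPM.

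Against all other kept cells the lowest ratios included those of Col2a1, Col10a1 and S100a8. In that comparison 23.3% of 8896 measured genes were higher and 18% lower past 1.5-fold in member cells. Calls in the higher direction were 56.4% of all calls, and 40.0% with either set of other scaling factors, which lower its log2 ratios by 0.20. In the comparison with the Pthlh-negative cells within the same limits they were 68.5%, and 46.0% or 45.1% with those factors. Col2a1, the main cartilage collagen, was 88.5 CPM in member cells and 4183 CPM in all other cells, Col10a1 of hypertrophic cartilage 11.2 and 623 CPM, and S100a8, a neutrophil protein gene, 2.24 and 243 CPM. The highest ratios belonged to Npy, Otor, Ogn, Prr16, Igf1, Meox2, Sostdc1, Etv1, Tnmd and Abi3bp. Meox2, a homeobox factor, was 107.5 CPM in 39 member cells and 12.8 CPM in all others, and Sostdc1, a BMP and Wnt antagonist, 151 CPM in 39 member cells and 19.2 CPM in all others.

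Fewer genes passed 1.5-fold against the Sfrp2-high Pthlh-positive cells, a comparison added after the data had been seen. Of 8784 measured genes 8.86% were higher and 12.4% lower in member cells past 1.5-fold. Ptch1 was 205 CPM in member cells and 111 CPM in Sfrp2-high cells, Gli1 45.9 and 28.3 CPM, and Hhip 98.5 and 109 CPM. The genes furthest above, besides Tnmd, were Inhba (68.3 and 14.0 CPM), which encodes an activin subunit, the matrix protein gene Edil3 (70.5 and 14.7 CPM) and the ephrin receptor gene Epha3 (114 and 24.5 CPM). The Wnt antagonist genes Dkk2 (171 and 45.7 CPM) and Wif1 (64.9 and 18.1 CPM) were also higher, as was Runx2 (68.3 and 18.1 CPM). Furthest below were the neurofilament genes Nefl (5.60 and 71.0 CPM) and Nefm (10.1 and 78.2 CPM) and Dpt (16.8 and 150 CPM), which encodes the matrix protein dermatopontin. Of 27 fibrous matrix genes 2 were higher and 5 lower.

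Clustering of the E16.5 cells, with the genes of the rule and Gli1, Ptch1 and Hhip left out of its features, spread the 84 cells over 8 of 21 clusters. The largest share, 38 cells or 45.2%, fell in a cluster of 284 cells led by Tnmd, Fst and Igf1. Tnmd itself was found in 7.89% of those 38 cells. A further 14 fell in a cluster led by Ostn and Omd, 12 in one led by Aldh1a2 and Osr1, 9 in one led by Prph and Ppm1l, 6 in one led by Thbs4, and 5 in 3 others. Sfrp2-high Pthlh-positive cells were most frequent in the Prph and Ppm1l cluster (40.7%), with 25% in the Aldh1a2 and Osr1 cluster. A further 61 of them, or 24.6%, shared the Tnmd, Fst and Igf1 cluster with the 38 member cells. In the Ostn and Omd cluster there were 0 of 248. Pthlh-negative cells within the same limits were in the Tnmd, Fst and Igf1 cluster in 4.83% of cases.

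**Figure D4:**
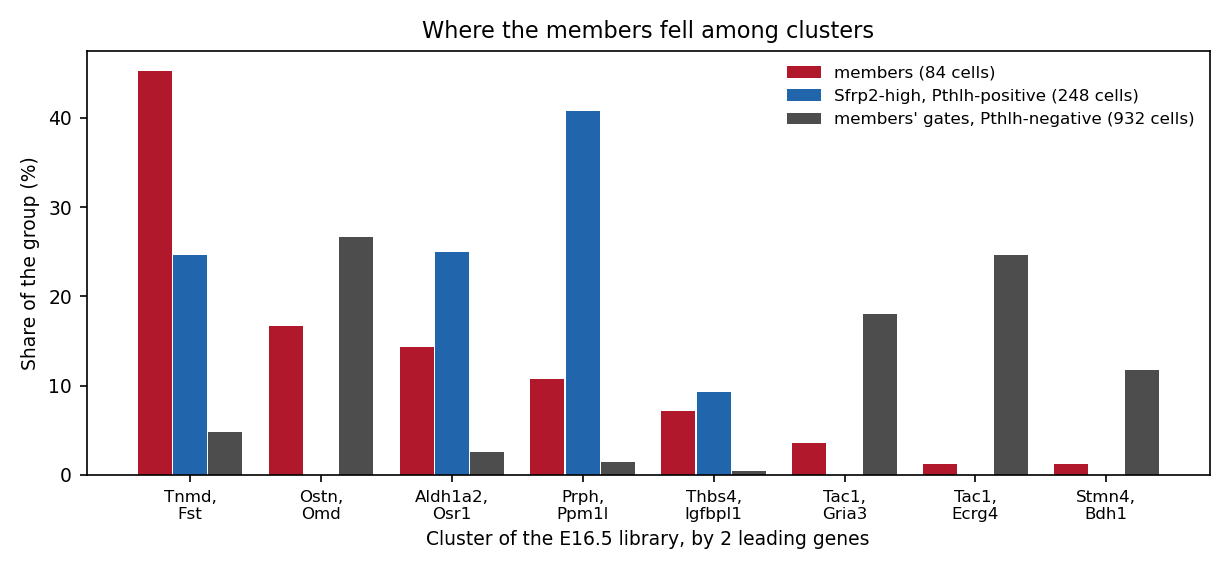
Share of each group (%) in the clusters that held a member cell, labelled by leading genes, for 84 member cells (red), 248 Sfrp2-high Pthlh-positive cells (blue) and 932 Pthlh-negative cells within the members' limits (grey), E16.5 library. The red bar is tallest in the Tnmd, Fst cluster (45.2%), the blue one in the Prph, Ppm1l cluster (40.7%).

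The hedgehog genes were unequal among the 84 cells. The 38 in the Tnmd, Fst and Igf1 cluster had 334 CPM of Ptch1, 163 CPM of Hhip and 69.6 CPM of Gli1, against 112, 52.0 and 28.9 CPM in the 46 others. These were 2.99-fold, 3.14-fold and 2.41-fold ratios, at median depths of 10571 and 10421 UMIs. Within that cluster Hhip was 163 CPM in the 38 member cells and 35.2 CPM in 45 Pthlh-negative cells, Ptch1 334 and 216 CPM, and Gli1 69.6 and 70.3 CPM. Outside it Hhip was 52.0 CPM in 46 member cells and 7.18 CPM in 887 Pthlh-negative cells, a 7.24-fold ratio. Ptch1 there was 112 CPM in member cells and 135 CPM in Pthlh-negative cells, with an interval of the log2 ratio from -0.68 to 0.10, so the higher Ptch1 of member cells was found in the Tnmd, Fst and Igf1 cluster and not detected in the rest. In the Ostn and Omd cluster Hhip was 94.8 CPM in 14 member cells and 13.4 CPM in 248 Pthlh-negative cells. In the Prph cluster the values ran the other way, on few counts. Ptch1 there was 15.3 CPM in 9 member cells, on 2 counts, and 80.5 CPM in 14 Pthlh-negative cells (log2 -2.40, interval -5.60 to -0.23). Hhip there was 22.9 CPM in member cells and 40.3 CPM in Pthlh-negative cells, with an interval from -3.44 to 1.41. In the Aldh1a2 cluster, with 12 member cells, no interval of the 3 genes excluded no difference. Within the Tnmd, Fst and Igf1 cluster Gas1 was 179 CPM in member cells and 344 CPM in Pthlh-negative cells. Likewise Scx was 110 and 377 CPM, Tnmd 144 and 749 CPM, Postn 1215 and 1947 CPM and Col1a1 2373 and 3698 CPM. Dcn stayed higher in member cells, at 674 and 344 CPM. For Pth1r the values were close, at 53.5 and 47.7 CPM on 20 and 19 counts. In the Ostn and Omd cluster Gas1 was 183 and 28.5 CPM and Pth1r 67.7 and 161 CPM. Sox9 in that cluster was 426 CPM in member cells (interval 328 to 546) and 264 CPM in Pthlh-negative cells, and Runx2 196 and 189 CPM. In the Tnmd, Fst and Igf1 cluster Sox9 was 174 and 296 CPM and Runx2 56.2 and 72.9 CPM.

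The same rule picked 89 of 3999 cells at P0 (2.23%) and 122 of 8028 at 13w (1.52%), where Pthlh was 239 and 179 CPM. Each library is a single pool, so the values are set side by side only. Hhip in cells passing the rule was 98.5 CPM at E16.5, 224 CPM at P0 and 130.0 CPM at 13w, and in Pthlh-negative cells within the same limits 7.98, 22.5 and 82.0 CPM. Its log2 ratio was 3.63, 3.31 and 0.66. Ptch1 had log2 ratios of 0.57, 0.36 and -0.97, and Gli1 of 0.32, 0.47 and 0.12. Pth1r was lower in cells passing the rule at each stage, with log2 ratios of -1.65, -1.19 and -1.50, and Gas1 was higher, at 2.33, 2.28 and 2.71. Of the 15 genes with the highest ratios at E16.5, 13 passed 1.5-fold the same way at P0 and 12 at 13w. Of the 10 lowest, 5 did at P0 and 6 at 13w. No share of all genes past 1.5-fold at P0 or 13w stands beside these counts, so nothing is concluded from them. They also used no limit on CPM: Ebf3 passed at 13w on 5 counts in cells passing the rule. At P0 Otor and Npy had 0 counts in cells passing the rule.

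**Figure D5:**
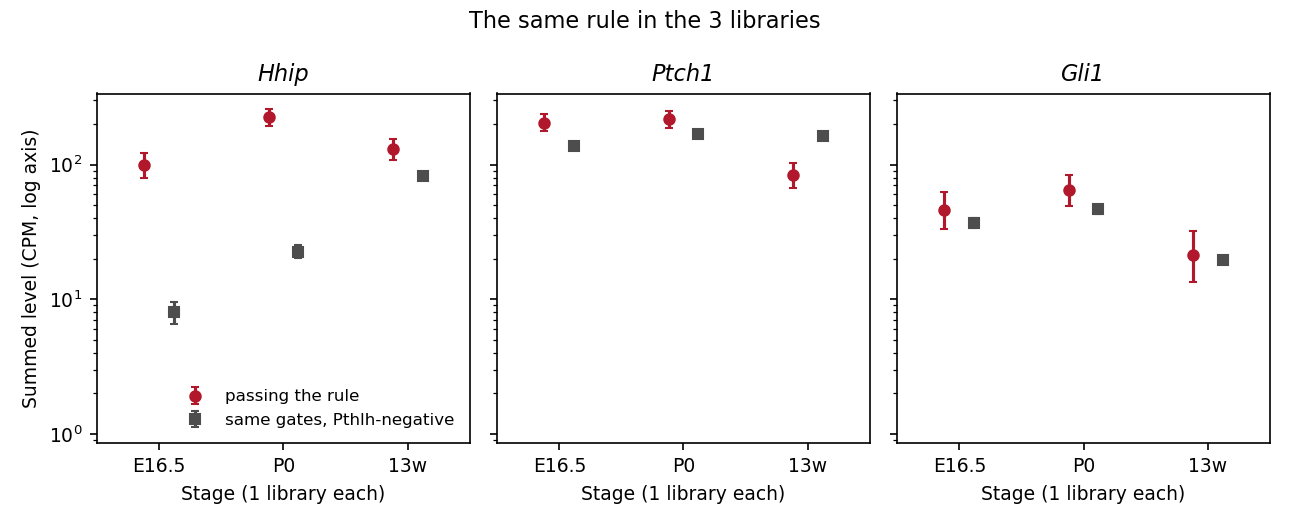
Summed levels (CPM, log axis) of Hhip, Ptch1 and Gli1 in cells passing the rule (red circles) and in Pthlh-negative cells within the same limits (grey squares), in the libraries at E16.5, P0 and 13w, with 95% exact Poisson intervals. The Hhip gap narrows at 13w, to 130.0 CPM against 82.0 CPM, where Ptch1 lies lower in the cells passing the rule.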

How the data were processed

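Raw UMI counts per gene and barcode were deposited by the authors for each of 3 libraries, and the file headers name Cell Ranger 6.1.2, with GRCm39 as the build per the submitters' processing notes, with no normalisation. Counting intervals cover counting error only, and cells are not replicates: since every stage is 1 pooled library, nothing was tested. The members, gene lists and comparisons were chosen with earlier results of these data known. Counts were summed per group and divided by the group's total UMIs to give CPM. Ratios have conditional exact binomial intervals (scipy 1.17.1), and a group at 0 was set to a floor of 3 counts, giving a bound. The named genes were all hedgehog and parathyroid hormone-related axis genes, the 15 highest and 10 lowest at 50 CPM or more against Pthlh-negative cells, the 10 highest and 10 lowest against all other cells, and 3 per further list. Genes of the rule, mitochondrial, ribosomal, haemoglobin, sex-linked, immunoglobulin and predicted genes did not enter the ratio ranks. Other genes given values were chosen after their values were seen. The main depth was 103827875 UMIs in 5458 barcodes at E16.5, 98486931 in 4853 at P0 and 115836876 in 8899 at 13w. Scrublet's automatic threshold (scanpy 1.11.5) marked 5 cells and was taken not to have worked, so doublets stayed in. As an alternative the 181 highest scores were removed, none of them member cells. Clustering was Leiden (leidenalg 0.10.2) at resolution 1 on 1986 genes, 30 components and 20 neighbours. Other scaling factors were TMM (edgeR 4.0.16) and median-of-ratios. The ratio and interval code was tested on simulated counts. One gene counted in a list is not reported here by name.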

Additional observations from a re-analysis of the deposited data

Results flagged for a closer look

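Among 31 genes whose ratio of cells passing the rule over Pthlh-negative cells was set side by side at the 3 stages, 2 pointed in opposite directions at E16.5 and a later stage, with both counting intervals excluding no difference. Ptch1 had a log2 ratio of 0.57 at E16.5 and -0.97 at 13w, with 83.4 CPM in cells passing the rule and 164 CPM in Pthlh-negative cells at 13w. Prelp, a leucine-rich proteoglycan gene of connective tissue, had a log2 ratio of -2.87 at E16.5, on 7 counts in member cells, and 0.66 at 13w, with 1139 CPM in cells passing the rule and 719 CPM in Pthlh-negative cells at 13w. Each stage is 1 library, so the difference between stages was not tested.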

How the results depend on the processing

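No paired analysis was possible because each stage has a single library with no replicate number. The number of members was 33 with at least 2 Pthlh UMIs and 51 with an Sfrp2 limit of 2 per 10000. With at least 2 Pthlh UMIs, log2 ratios against all other cells were 1.54 for Gli1, 3.37 for Hhip and 0.99 for Ptch1, and against Pthlh-negative cells 0.81, 4.22 and 0.83. Thinned to 5000 UMIs, Gli1 was 0.20 against all others and -0.37 against Pthlh-negative cells, and Hhip 2.01 against all others. Hhip against all others was 2.43 with the stricter Sfrp2 limit, 2.07 with each cell weighing the same and 1.68 with comparison cells weighted to the members' depth. Gli1 and Ptch1 against all others were 0.86 and 0.91 with each cell weighing the same, and 0.64 and 0.65 with depth weights. Ptch1 against Pthlh-negative cells was 0.34 with median-of-ratios factors. Of 2072 genes higher and 1600 lower against all other cells, 4673 and 2433 were found with no limit on CPM and 1047 and 870 at 2-fold, and 1074 higher with depth weights. Of 1944 higher and 893 lower against Pthlh-negative cells, 1275 and 1494 were found under TMM, 1266 and 1540 under median-of-ratios factors, 4642 and 1618 with no limit on CPM and 929 and 397 at 2-fold. Reversed against all other cells were Actc1 (3.19 without 6 non-skeletal clusters), Hdac4 (-0.019 with at least 2 Pthlh UMIs and -0.80 thinned), Igfbp2 (-0.42 with at least 2 Pthlh UMIs and -0.24 with depth weights) and Osr1 (-0.16 with depth weights). Reversed against Pthlh-negative cells were Actc1 (3.19 without those clusters) and S100a8 (0.98 thinned and 1.02 without those clusters), each on at most 3 counts in member cells. The cause was not tested. Of 2200 other values for named genes, 1769 stayed within the counting interval, 422 left it and 9 reversed. With 893056 UMIs in the member cells, 10 CPM is about 8.93 counts, so single low genes are poorly set.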

Other observations

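Proliferation, stress and load genes, which the report does not describe, were set against the Pthlh-negative cells within the same limits. In that comparison 22.5% of all measured genes were higher in member cells and 10.3% lower. Of 21 cell cycle genes other than Mki67 and Top2a 2 were higher and 6 lower, 4 of the 6 with an interval excluding no difference. They had a median log2 ratio of -0.08, where all measured genes had 0.13 and other scaling factors lower every log2 ratio by 0.22 to 0.23. The cyclin gene Ccne1 was 20.2 CPM in member cells and 54.0 CPM in Pthlh-negative cells, and the cell cycle inhibitor gene Cdkn1a 14.6 and 42.1 CPM. Of 17 immediate early and heat shock genes 1 was higher and 0 lower (0.05). The higher one was Hspa1b, at 35.8 CPM in member cells and 20.9 CPM in Pthlh-negative cells, which shares sequence with Hspa1a. Of 10 mechanoresponse and YAP genes 2 were higher and 1 lower (0.24). The matricellular genes Ccn1 and Ccn2 were higher, Ccn2 at 26.9 CPM against 6.41 CPM. The cation channel gene Trpv4 was lower, on 2 counts, at 2.24 CPM in member cells and 19.2 CPM in Pthlh-negative cells.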
